A study of Homo sapiens with 12 samples.

Results

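KD1 and KD2 are siRNAs against SIRT1 with non-overlapping targets in the transcript, and their arrays were set against each other across all genes detected. The arrays were taken by their titles, KD1 replicates 1 and 2 and KD2 replicates 2 and 3, which makes 4 of the 12 arrays of the series. All samples came from Caco-2, an epithelial line from a human colorectal adenocarcinoma that forms enterocyte-like layers in culture. KD1 cells and KD2 cells carried 1 SIRT1 siRNA each and were lysed 72 h later, as were the cells of the 2 control arrays, which had received a scrambled siRNA of low GC content. The other 6 arrays came from cells transfected with plasmids, 3 with pCMV-ENTRY Sirt1 and 3 with the empty vector pCMV-Neo. They served here to estimate spread and to give the range of levels without an siRNA. They also entered the joint normalisation, the detection filter, the choice of probes and the centring of list means. The design names the arrays biological replicates, with 2 per siRNA group.

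SIRT1 is an NAD-dependent deacetylase that removes acetyl groups from histones, transcription factors and metabolic regulators, and in the gut it is known for roles in lipid handling, bile acid signalling and inflammation. An siRNA is loaded into an Argonaute protein and guides it to a matching transcript, which is then cut and degraded. The same guide can also lower other transcripts through shorter matches, so that siRNAs with different sequences against 1 gene share the intended target but not such partial matches. A gene that differs between KD1 and KD2 cells at a like SIRT1 level may therefore do so through the siRNA sequence, the culture, the array or chance. Which of these applies was not tested. How alike the SIRT1 levels were is known only within the interval given below. The siRNA sequences were not given in the sources used here, so no transcript was searched for a match to them.

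Per array, 16717 and 17476 probes were detected in KD1, 17185 and 16186 in KD2 and 17483 and 17981 in the scrambled control, against 15345 to 17981 over all 12 arrays. Enterocyte markers were present: 12 of 17 on the array were detected on all 4 KD arrays, and FABP1 and LGALS4 on none. Their summed intensity was 59264 to 59582 with KD1, 59425 to 63863 with KD2 and 58816 to 59339 with scrambled siRNA. Of 16 leukocyte markers 9, PTPRC and CD3E among them, were detected on no KD array, and of 13 endothelial markers 10, VWF and CDH5 among them. The 13 fibroblast markers, of which DCN, FAP and THY1 were undetected, summed to 6454 to 7913 with KD1, 6347 to 7782 with KD2 and 7333 to 7548 with scrambled siRNA. As these are bulk samples, fewer cells of a type and less RNA per cell cannot be told apart.

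KD1 replicate 1 was the only siRNA array that correlated better with the plasmid arrays than with the other siRNA arrays. Across genes its mean Pearson correlation was 0.987 with the 6 plasmid arrays and 0.983 with the other siRNA arrays. KD1 replicate 2 correlated at 0.972 with the plasmid arrays and 0.986 with the other siRNA arrays. Lowest of the siRNA arrays in both respects was KD2 replicate 3, at 0.964 and 0.982. Genes known to respond to low oxygen took part in the difference between the KD1 arrays. Of the 29 tested, 19 were more than 1 log2 unit apart between these arrays, against 1.75% of all genes. They are described at the end, and the counts of genes that differ are also given without each KD array in turn.

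SIRT1 RNA was low with both siRNAs, at log2 levels of 7.31 and 7.29 in KD1 cells and 7.83 and 7.14 in KD2 cells, against 8.54 and 8.83 with scrambled siRNA. All 4 KD arrays lay below both control arrays, and the KD2 arrays lay on either side of the KD1 arrays. The log2 fold change between the siRNAs, always KD1 minus KD2, was -0.18 (SE 0.22, 95% interval -0.67 to 0.30, limma adjusted p = 0.794). Relative to the shared scrambled arrays SIRT1 stood at -1.39 in KD1 cells and -1.20 in KD2 cells. A single KD2 array set the sign of the difference: it was 0.16 without KD2 replicate 2 and -0.53 without KD2 replicate 3. The array holds 1 SIRT1 probe. Levels throughout are normalised log2 intensities, in which 1 unit is a 2-fold difference.

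Most genes were alike in KD1 and KD2 cells within the precision of the arrays. For 10288 of 11458 genes tested (89.8%) the 95% interval of the difference lay wholly within 2-fold in either direction. The median difference was 0.01, and the 1st and 99th percentiles were -0.70 and 0.71. With limma and an adjusted p under 0.05 as the threshold, 75 genes differed, which is 0.655% of those tested, 54 higher in KD1 cells (0.471%) and 21 lower (0.183%). An unadjusted p under 0.05 was reached by 1387 genes (12.1%). Their KD1 and KD2 arrays did not overlap in any of the 75 genes, a pattern that 36.3% of all genes showed. Folds were moderate, from 1.46 to 2.84 among the genes higher in KD1 cells and from 1.55 to 2.39 among those lower. In all, 52 genes differed by more than 2-fold, of which 29 passed the test.

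The list of 75 depends on the spread pooled over the 12 arrays. The KD arrays were wider apart than the control arrays. Over all genes the median range was 0.21 within KD1 and 0.22 within KD2, against 0.15 within the scrambled control. The pooled spread may thus be too small for KD1 minus KD2, and the intervals above rest on it as well. Fitted on the 6 siRNA arrays alone, limma called 0 genes, with 1035 at an unadjusted p under 0.05 and a smallest adjusted p of 0.267. Without KD1 replicate 1 it called 1 gene (ITGA2), without KD1 replicate 2 10 genes, without KD2 replicate 2 68 genes and without KD2 replicate 3 0 genes (1092 at an unadjusted p under 0.05). A scaling by medians without quantiles left 1 higher gene and 0 lower ones, against 54 and 21. All 75 genes kept their sign in each of these fits.

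**Figure D1:**
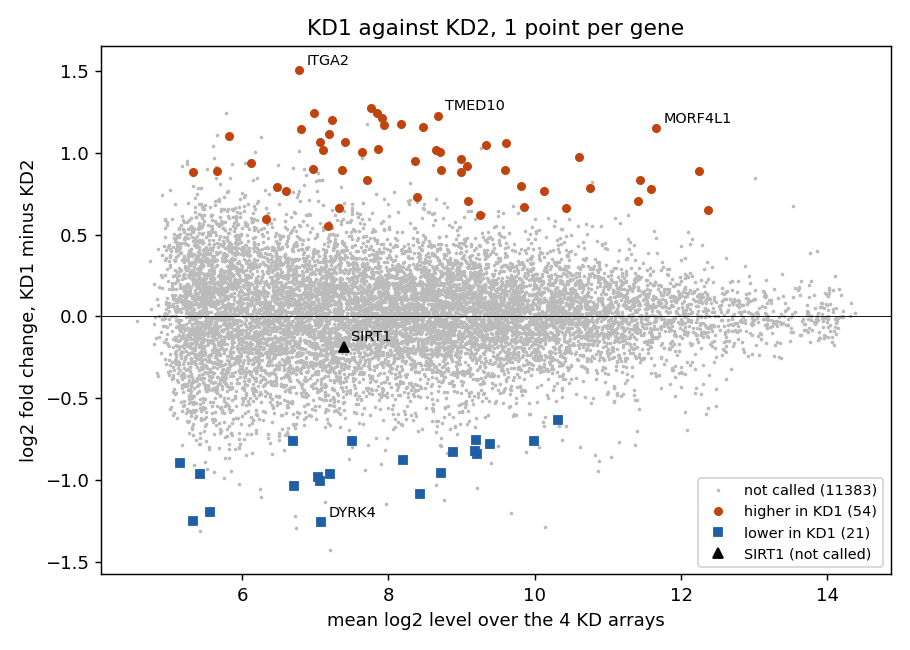
Log2 fold change (KD1 minus KD2) of each of 11458 genes against its mean log2 level over the 4 KD arrays; circles mark the 54 genes higher and squares the 21 lower in KD1 cells at a limma adjusted p under 0.05. The called genes are spread over the whole range of levels, and SIRT1 (triangle) lies at -0.18.

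Among the genes higher in KD1 than KD2 cells, the largest difference was that of ITGA2, the alpha 2 subunit of a collagen-binding integrin. Its log2 level was 7.37 and 7.69 in KD1 cells and 6.21 and 5.84 in KD2 cells, against 7.52 and 7.55 with scrambled siRNA. The KD1 arrays were at the control level and both KD2 arrays were low, a difference of 1.51 (SE 0.16, limma adjusted p = 0.00773), or 2.84-fold. ITGA2 passed the threshold under 13 of 17 alternative settings, the most of any gene. It was 1 of 13 integrin subunits tested and the one that passed. ITGB1, its partner subunit, stood at 0.52 and ITGA1, another collagen-binding alpha subunit, at 0.56, neither past the threshold. The 13 subunits had a median of 0.04, close to the 0.01 of all genes.

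TMED10, a receptor of the p24 family that selects cargo for vesicles between the endoplasmic reticulum and the Golgi, had the smallest adjusted p of all genes. Its level was 9.28 and 9.30 in KD1 cells and 8.09 and 8.03 in KD2 cells, against 9.19 and 8.93 with scrambled siRNA. Here too KD1 arrays stood near the control and KD2 arrays below it, with a difference of 1.23 (SE 0.12, limma adjusted p = 0.00639). The probe for TMED10P1, a near-identical pseudogene, was also higher (0.78), and signal from the gene and its copy cannot be told apart with certainty. The remaining 25 genes of the p24 and COPII coat list did not pass, and the list's median was -0.04. TMED2, the usual p24 partner, stood at 0.05 and TMED9 at -0.30.

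GLYR1 and MORF4L1 are chromatin proteins that belong to none of the lists. GLYR1, a nucleosome-binding cofactor of a histone demethylase, had levels of 8.60 and 8.42 in KD1 cells and 7.45 and 7.15 in KD2 cells, against 8.21 and 8.51 in the control. MORF4L1, a chromodomain subunit of a histone acetyltransferase complex, had 12.16 and 12.31 in KD1 cells and 11.27 and 10.90 in KD2 cells, against 11.98 and 12.18. In both genes the KD1 arrays overlapped the control arrays and the KD2 arrays lay below them. The differences were 1.21 (SE 0.15) for GLYR1 and 1.15 (SE 0.16) for MORF4L1, with limma adjusted p of 0.0103 and 0.016. SOX2, a stem cell transcription factor, showed levels of 8.47 and 8.32 in KD1 cells and 7.52 and 6.73 in KD2 cells, against 7.58 and 8.11 with scrambled siRNA. For SOX2 the KD1 arrays were above and the KD2 arrays below both controls, by 0.55 and -0.72 on average, and its other probe gave 1.00 against 1.27 for the main one. NAA50, an N-terminal acetyltransferase, differed by 1.17, with KD1 arrays at 8.48 and 8.58, KD2 arrays at 7.54 and 7.19 and the control at 8.17 and 8.67.

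UBD was high in KD1 cells rather than low in KD2 cells, and CYBRD1 was both. UBD encodes FAT10, a ubiquitin-like modifier induced by inflammatory cytokines. Its level was 8.33 and 8.61 in KD1 cells and 6.93 and 7.51 in KD2 cells, against 7.06 and 6.73 in the control, so that KD1 exceeded every array without a SIRT1 siRNA. Relative to scrambled siRNA UBD stood at 1.57 in KD1 cells and 0.33 in KD2 cells, and the difference between the siRNAs was 1.24 (SE 0.23, limma adjusted p = 0.0435). CYBRD1, the ferric reductase of the enterocyte brush border, had 7.80 and 7.86 in KD1 cells and 6.49 and 6.76 in KD2 cells, against 7.16 and 6.91, so that the siRNAs lay on opposite sides of the control. PDGFRA, a growth factor receptor otherwise used as a fibroblast marker, had 9.55 and 9.39 in KD1 cells and 8.55 and 8.47 in KD2 cells, against 8.59 and 8.88. On this probe KD1 arrays were the high ones for PDGFRA, by 0.96 (limma adjusted p = 0.0174). Its other probe gave 1.27 and also passed, with another arrangement. There KD1 arrays stood at 8.33 and 8.47 and KD2 arrays at 7.24 and 7.01, on either side of the control at 8.01 and 7.84. The other 9 fibroblast markers tested did not pass, with a list median of -0.10, and the summed marker levels given above overlapped between the siRNAs; their part in the PDGFRA result was not tested. MSRB3, a methionine sulfoxide reductase, had 6.64 and 6.55 in KD1 cells and 5.56 and 5.75 in KD2 cells, against 5.62 and 5.87. Its KD1 arrays were above the scrambled control but overlapped the plasmid arrays, which stood at 6.26 to 6.57.

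The other genes among the 15 highest were MSMB, UGT1A6, THBS1, OSBPL8, CNIH2, IFRD2 and DISP2. MSMB, a small secreted protein of mucosal glands, differed by 1.24, at 7.30 and 7.91 in KD1 cells and 6.16 and 6.56 in KD2 cells. The control stood at 7.31 and 7.26. Other MSMB probes gave 0.67 and 0.59, neither with an unadjusted limma p under 0.05. UGT1A6, which conjugates phenols with glucuronic acid, differed by 1.18, at 8.63 and 8.88 in KD1 cells and 7.77 and 7.38 in KD2 cells, against 8.64 and 8.70 in the control. The plasmid arrays, at 7.63 to 7.93, overlapped KD2 and lay below KD1 and the scrambled control. The other UGT1A6 probes gave 0.99 and 0.66, and since UGT1A genes share exons the signal may come from more than 1 of them. THBS1, the matrix protein thrombospondin 1, differed by 1.07, at 7.89 and 7.30 in KD1 cells and 6.65 and 6.41 in KD2 cells. OSBPL8, a lipid transfer protein of the endoplasmic reticulum, differed by 1.16, CNIH2, a cargo adaptor and auxiliary subunit of glutamate receptors, by 1.14, and IFRD2, a ribosome-binding factor, by 1.12. In IFRD2 the KD1 arrays stood at 7.84 and 7.65 and the KD2 arrays, 0.75 apart, at 7.00 and 6.25. DISP2, a homologue of a hedgehog release factor, was detected on no KD2 array and was at least 1.68-fold higher with KD1. The same held for DHRS4L2, a reductase with near-identical paralogs, at least 1.39-fold higher, and SORCS2, a sorting receptor, at least 1.11-fold higher.

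Among the other called members of the lists were PKP2, a desmosome plaque protein (0.89), UQCRQ, a subunit of respiratory complex III (0.89), and NFKB1, the p50 precursor of NF-kB (0.76). NFKB1 levels were 10.60 and 10.42 in KD1 cells and 9.82 and 9.67 in KD2 cells, against 10.25 and 10.17 in the control. The remaining 21 NF-kB and chemokine genes did not pass, and their list had a median of -0.01. The oxidative phosphorylation list had 49 genes tested and a median of 0.03, and UQCRQ was its 1 member that passed; the list is not complete, and NDUFA7, a subunit of respiratory complex I that it omits, also passed (1.05). GPX2, an intestinal glutathione peroxidase (1.06), EMC1 (1.06), PRPS1 (1.00) and INTS3 (1.02) were also higher in KD1 cells; these 4 and NDUFA7 are named after their values were seen. In GPX2 the levels were 10.19 and 10.09 in KD1 cells and 9.14 and 9.02 in KD2 cells, against 10.29 and 10.18 in the control, the KD2 arrays being the low ones.

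Of the genes lower in KD1 than KD2 cells, DYRK4, a protein kinase, differed most. Its level was 6.48 and 6.42 in KD1 cells and 7.68 and 7.74 in KD2 cells, against 7.34 and 7.44 with scrambled siRNA. The KD1 arrays lay below and the KD2 arrays above all 8 arrays without a SIRT1 siRNA, a difference of -1.26 (SE 0.15, limma adjusted p = 0.0103). JPT1, a microtubule-associated protein also called HN1, had 8.06 and 7.71 in KD1 cells and 9.12 and 8.82 in KD2 cells, against 9.01 and 9.00. For JPT1 the KD2 arrays were level with the control and the KD1 arrays were low, a difference of -1.09 (SE 0.15, limma adjusted p = 0.0174). CDK19, a kinase of the Mediator complex, showed the same arrangement, at 8.39 and 8.54 in KD1 cells and 9.20 and 9.39 in KD2 cells, against 9.27 and 9.32. ALOX5AP, the protein that presents arachidonic acid to 5-lipoxygenase, had 6.71 and 6.41 in KD1 cells and 7.37 and 7.77 in KD2 cells, against 7.49 and 7.74. Beside scrambled siRNA the KD1 arrays of ALOX5AP were again the low ones. The plasmid arrays, at 6.04 to 6.70, overlapped KD1 and lay below KD2 and the scrambled control.

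CANX, the lectin chaperone calnexin of the endoplasmic reticulum, was lower in KD1 cells by -0.75 (limma adjusted p = 0.0304), at 8.77 and 8.87 with KD1 and 9.61 and 9.54 with KD2, against 9.80 and 9.73 with scrambled siRNA. Relative to scrambled siRNA CANX stood at -0.94 in KD1 cells and -0.19 in KD2 cells, and a further CANX probe gave -0.82 and also passed. The other 21 chaperone and unfolded protein response genes tested did not pass, and the list's median was -0.04. SUB1, a transcriptional coactivator (-0.95), KIFBP, a kinesin-binding protein (-0.82), FGFBP1, a secreted carrier of fibroblast growth factors (-0.96), BBIP1, a subunit of the BBSome of cilia (-1.03), RGN, the calcium-binding protein regucalcin (-0.88), and ANKMY2 (-0.84) were lower as well. In FGFBP1 the levels were 6.80 and 6.63 in KD1 cells and 7.90 and 7.45 in KD2 cells, on either side of the control at 7.34 and 7.22. NEK7, a mitotic kinase, differed by -0.98 on its main probe, at 6.58 and 6.53 in KD1 cells and 7.68 and 7.38 in KD2 cells, but stood at 0.23 on its other probe.

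Of the 21 genes, 4 were not detected on any KD1 array, so that their folds are lower bounds. LINC01918, a long noncoding RNA, was at least 1.32-fold, and SNORD76, a small nucleolar RNA, at least 1.52-fold lower in KD1 cells. Neither was detected with scrambled siRNA, and both were detected on the 2 KD2 arrays, at 5.68 and 6.24 for LINC01918 and 6.11 and 6.22 for SNORD76. CCDC107 was at least 1.27-fold lower. DST, the cytoskeletal linker dystonin, was detected on 1 of 2 KD2 arrays, so its bound of 1.03-fold is not firm. Across all 47231 probes, 238 were detected on both KD1 arrays and neither KD2 array, and 128 the other way round, beside 14843 detected on all 4.

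**Figure D2:**
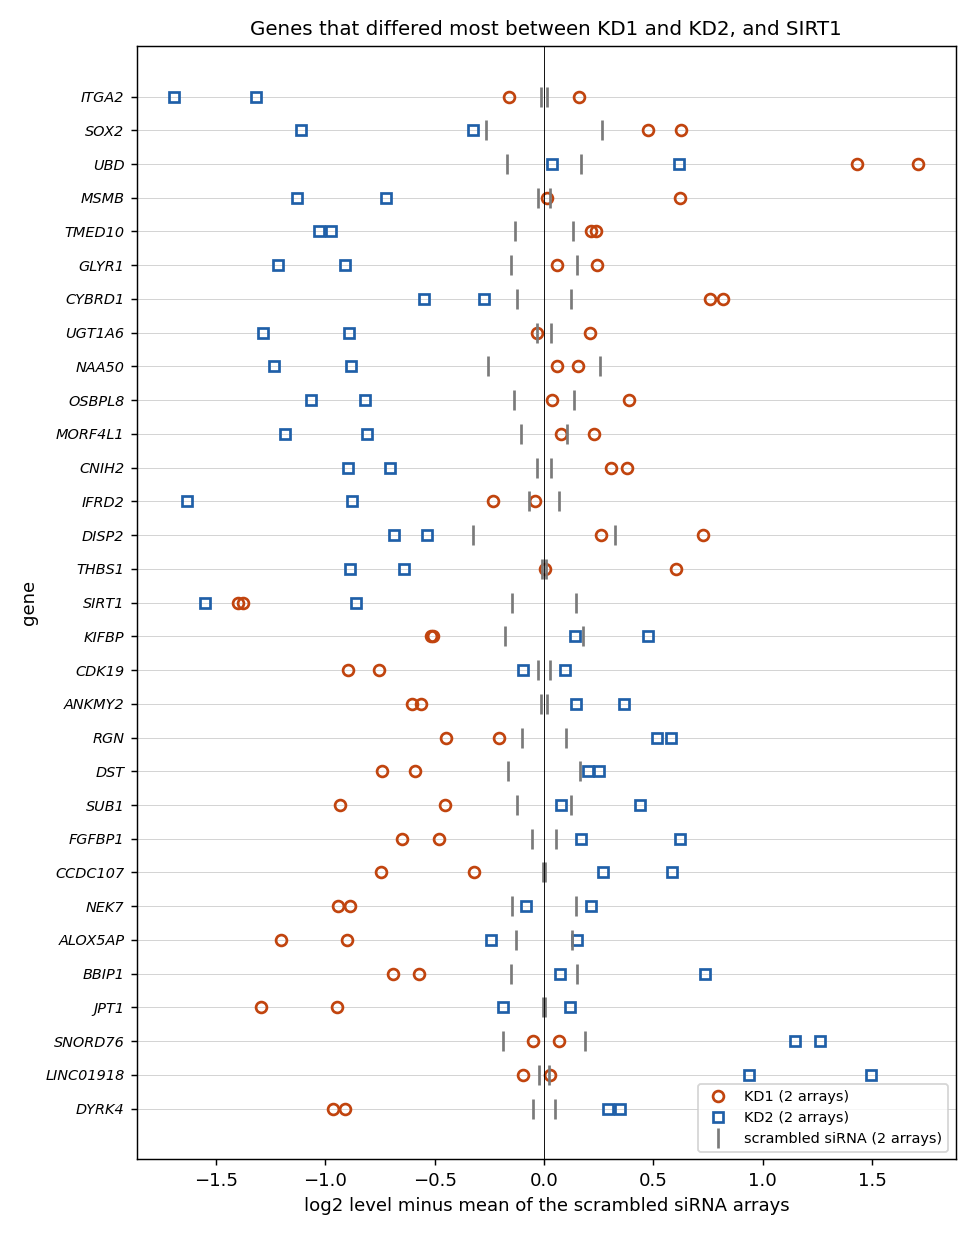
Log2 level of each KD array minus the mean of the scrambled siRNA arrays for the 15 genes highest and the 15 lowest in KD1 relative to KD2, with SIRT1 between them; circles are KD1 arrays, squares KD2 arrays and ticks the scrambled arrays. In the upper block most KD1 circles lie near 0 and most KD2 squares below it, while UBD has the KD1 circles farthest to the right; in the lower block KD1 circles are mostly below 0, while SNORD76 and LINC01918 have high KD2 squares.

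The side of the control on which each siRNA lay was compared over the 75 genes; both comparisons share the scrambled arrays, and the genes were chosen for their difference, so these counts describe positions and carry no test. Of the 54 genes higher in KD1 cells, KD1 lay farther from the scrambled control in 9 and KD2 farther in 45, and in 44 the siRNAs were on opposite sides. Both KD1 arrays lay above all 8 arrays without a SIRT1 siRNA in 14 of the 54, against 4.29% of all genes, and both KD2 arrays lay below all 8 in 48, against 11.3%. Of the 21 genes lower in KD1 cells, KD1 lay farther from the control in 17 and KD2 in 4. Both KD1 arrays lay below all 8 in 12 of the 21, against 5.31% of all genes, and both KD2 arrays above all 8 in 10, against 7.17%. By these counts the siRNA with the lower level was the one farther from the control in 45 of 54 and 17 of 21 genes. The shares of all genes for the farther siRNA and for opposite sides are not given here. Over all genes, both KD2 arrays lay outside the 8 more often than both KD1 arrays, below in 11.3% against 5.31% and above in 7.17% against 4.29%.

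**Figure D3:**
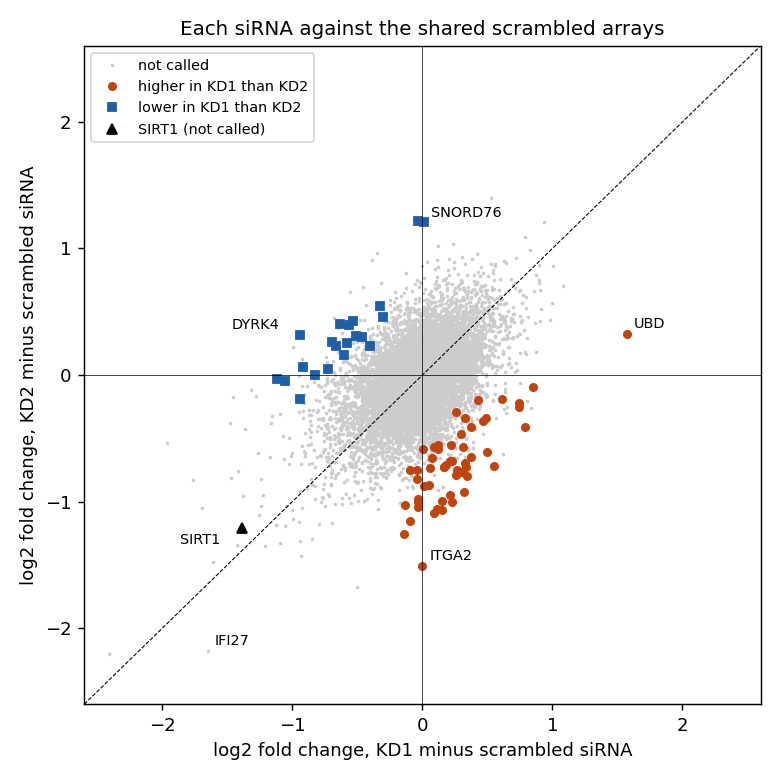
Log2 fold change of each gene against the shared scrambled siRNA arrays, KD1 on the horizontal and KD2 on the vertical axis; circles are the 54 genes higher and squares the 21 lower in KD1 than KD2 cells. Most circles lie below 0 on the vertical axis and most squares to the left of 0 on the horizontal axis, whereas SIRT1 (triangle) lies near the dashed line of equal change, at -1.39 and -1.20.

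Probes other than the main one offered a further reading of the same RNA. Among the called genes 17 had such probes, 23 in all, and 22 of the 23 had the same sign as the main probe, NEK7 being the exception. An unadjusted p under 0.05 was reached by 16 of them, and 3, for CANX, PDGFRA and TVP23B, passed when adjusted over all 19263 probes. For TVP23B, a Golgi membrane protein, both probes gave -0.76. On the probe level 61 probes were called, 0.317% of all.

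The RNA interference machinery and the enzymes around SIRT1 and NAD were read against the shares over all genes, 0.655% called, 12.1% with an unadjusted p under 0.05 and 89.8% with an interval within 2-fold. For lists of this size a count of 0 called is near that background. The interval lay within 2-fold for 14 of 15 RNA interference genes and 14 of 16 sirtuin and NAD salvage genes. Of the 15 RNA interference genes 0 passed limma's threshold, 2 had an unadjusted p under 0.05 and the median was -0.01. DROSHA, the nuclear microRNA processing enzyme, stood at 0.48 (limma adjusted p = 0.131), AGO2 at 0.25 and DICER1 at -0.08. Of the 16 sirtuin and NAD salvage genes 0 passed and 4 had an unadjusted p under 0.05. KYNU, an enzyme of tryptophan breakdown towards NAD, came nearest, at 8.62 and 8.44 in KD1 cells and 9.16 and 9.10 in KD2 cells (difference -0.60, limma adjusted p = 0.0746). NAMPT, the rate-limiting enzyme of NAD salvage, stood at -0.51. The other sirtuins tested ranged from -0.13 for SIRT5 to 0.13 for SIRT2.

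Interferon-induced genes, which transfected RNA can raise, gave counts near those of all genes. Of 26 tested 0 passed limma's threshold, 3 had an unadjusted p under 0.05, against 12.1% of all genes, and for 25 the interval lay within 2-fold, against 89.8%. Their median difference was -0.04, with 12 of 26 above 0, against 52.5% of all genes. The mean level of the list, after each gene was centred over the 12 arrays, was -0.19 and -0.29 on the KD1 arrays and -0.18 and -0.30 on the KD2 arrays, against 0.47 and 0.41 with scrambled siRNA. The KD1 and KD2 arrays overlapped, and all 4 lay below the control arrays. IFI27, a strongly interferon-induced gene, had 6.55 and 6.29 in KD1 cells and 5.94 and 5.86 in KD2 cells, against 8.17 and 7.98. Between the siRNAs IFI27 stood at 0.53, OAS3 at 0.49 and HERC5 at 0.31, none past the threshold, and IFIT1 at -0.13 and ISG15 at -0.15.

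Across the 48 lists, 15 called genes were members and no list held more than 1. DNA replication genes had the highest median among lists with 5 or more tested members, 0.23, with 35 of 38 above 0. Among the 38, 0 passed limma's threshold and 11 had an unadjusted p under 0.05, against 12.1% of all genes. MCM2, a subunit of the replicative helicase, had 9.35 and 9.33 in KD1 cells and 8.56 and 8.90 in KD2 cells (difference 0.61, limma adjusted p = 0.203), and MCM7 and MCM3 stood at 0.43 and 0.44. The list's mean was 0.06 and 0.03 on the KD1 arrays and -0.15 and -0.21 on the KD2 arrays, against -0.02 and -0.04 with scrambled siRNA, without overlap between the siRNAs. Mitosis genes had a median of 0.02 over 39 genes, with 20 above 0.

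Lists of lipid and enterocyte genes had medians below 0, with no member past the threshold. Of 18 apolipoprotein and lipid absorption genes 0 passed limma's threshold, 8 had an unadjusted p under 0.05, against 12.1% of all genes, 5 were above 0 and the median was -0.18. APOA4, an apolipoprotein of chylomicrons, had 5.82 and 7.17 in KD1 cells and 7.66 and 8.19 in KD2 cells, against 8.45 and 8.47 with scrambled siRNA. All 4 KD arrays were below the control arrays, KD1 replicate 1 furthest, and the difference of -1.43 was the largest negative one of the list (limma adjusted p = 0.206). MTTP, which loads lipid onto apolipoprotein B, stood at -0.64 and APOH at -0.48. The list means were -0.21 and -0.09 with KD1 and 0.14 and 0.16 with KD2, against 0.08 and 0.18 with scrambled siRNA, so that the siRNAs did not overlap. Cholesterol synthesis genes had a median of -0.17 with 4 of 19 above 0, and CYP51A1, a sterol demethylase, stood at -0.79. Their means did overlap, at -0.10 and 0.21 on the KD1 arrays and 0.08 and 0.38 on the KD2 arrays, against 0.09 and 0.10, with KD1 replicate 1 the lowest. Brush border genes also had a median of -0.17, with 4 of 21 above 0, and means of -0.06 and -0.02 with KD1 and 0.13 and 0.15 with KD2, against 0.03 and 0.07. Among them MME, the peptidase neprilysin, came nearest to the threshold (-0.63, limma adjusted p = 0.0822).

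Some genes fell just short of the threshold. CEACAM6, a cell adhesion molecule of colon tumours, had 8.24 and 8.35 in KD1 cells and 7.14 and 7.10 in KD2 cells, against 8.36 and 9.23 with scrambled siRNA. Its KD2 arrays were the low ones, by 1.17 relative to KD1 (SE 0.23, limma adjusted p = 0.0525), while CEACAM1 stood at 0.14. ATG12, a conjugation factor of autophagy, had 9.69 and 9.91 in KD1 cells and 10.30 and 10.63 in KD2 cells, a difference of -0.67 (limma adjusted p = 0.0518). SPRED1, an inhibitor of MAP kinase signalling, stood at 0.71 (0.0606) and MBD2, a reader of methylated DNA, at -0.72 (0.0758), each with the limma adjusted p in brackets.

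**Figure D4:**
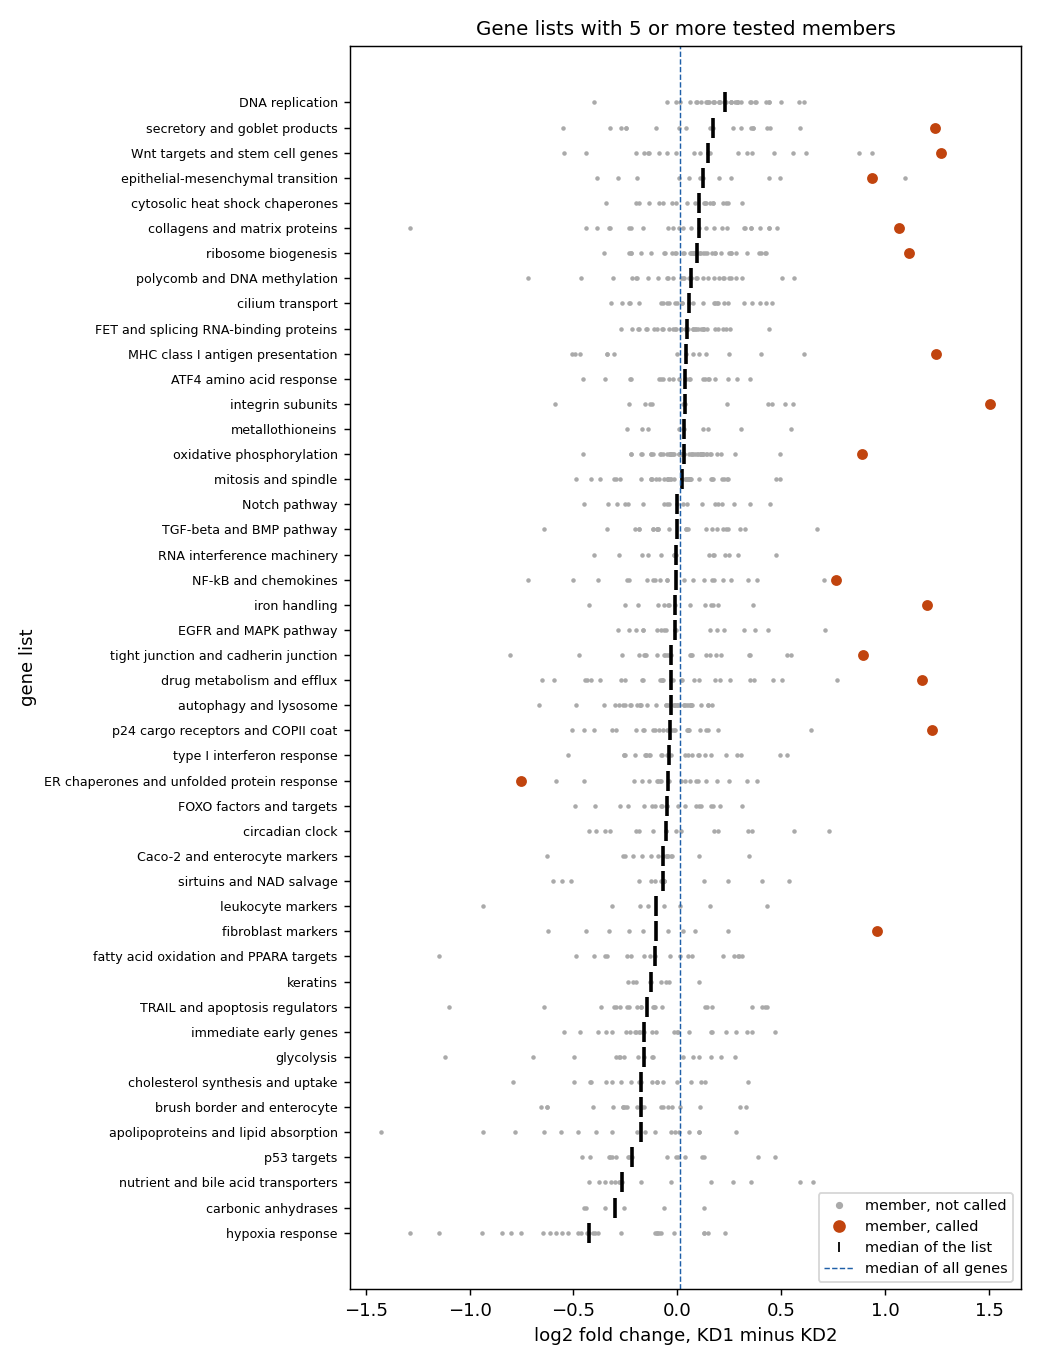
Log2 fold changes (KD1 minus KD2) of the members of each gene list with at least 5 tested members; small dots are members that did not pass, large circles members with a limma adjusted p under 0.05, black ticks list medians and the dashed line the median of all genes, 0.01. Called members are scattered over many lists, 1 in each, and the hypoxia response list has the lowest median.

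The arrays of 1 siRNA differed from each other in a set of genes of their own. Between the KD1 arrays 200 genes (1.75%) were more than 1 log2 unit apart and between the KD2 arrays 209 (1.82%), against 33 (0.288%) between the scrambled siRNA arrays. In 32 genes both pairs were this far apart, and in 31 of these the lower arrays were KD1 replicate 1 and KD2 replicate 2. None of the 75 called genes was more than 1 unit apart within KD1 or KD2, and 8 of the 75 had a range above 0.5.

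Genes of the hypoxia response, which hypoxia-inducible factors switch on when oxygen is low, made up part of this set. Of 29 tested, 19 were more than 1 log2 unit apart within KD1, against 1.75% of all genes. Within KD2 there were 5, against 1.82%, and 5 of the 32 genes far apart in both pairs were on the list. By sign alone, 26 were lower in KD1 replicate 1 than in KD1 replicate 2. In KD2 replicate 2, 28 were lower than in KD2 replicate 3. The shares of all genes by sign are not given here. The list's mean was -0.02 and 0.99 on the KD1 arrays and 0.56 and 1.23 on the KD2 arrays, against 0.92 and 0.82 with scrambled siRNA and -0.82 to -0.67 on the plasmid arrays. KD1 replicate 1 was thus the lowest siRNA array, and KD1 replicate 2 lay between the KD2 arrays. Between the siRNAs the list had a median of -0.42, with 4 of 29 above 0; limma called 0 of the 29, 2 had an unadjusted p under 0.05, and 13 had an interval within 2-fold, against 89.8% of all genes. With the list's mean as a covariate 62 genes differed between the siRNAs, 40 higher and 22 lower in KD1 cells.

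ENO2, a neuronal and hypoxia-induced form of the glycolytic enzyme enolase, had the widest range within KD1, at 6.96 and 9.44, with 8.63 and 10.01 in KD2 cells and 9.72 and 9.24 in the control. ANKRD37, a known target of hypoxia-inducible factor, had 9.24 and 11.55 in KD1 cells and 10.66 and 12.01 in KD2 cells, against 12.06 and 11.45. LOX, which crosslinks collagen, had 8.41 and 10.57 in KD1 cells and 10.25 and 11.31 in KD2 cells, against 11.08 and 10.82. In all 3, KD1 replicate 1 was the lowest of the 6 siRNA arrays, and the plasmid arrays were lower still, at 5.24 to 6.18 for ENO2, 6.66 to 7.15 for ANKRD37 and 6.14 to 6.71 for LOX. CYP26A1, a retinoic acid hydroxylase, with 6.91 and 9.20 in KD1 cells, and BIRC7, an inhibitor of apoptosis, with 4.57 and 6.84, completed the 5 widest. BIRC7 was detected on only 1 KD1 array. The differences of these 5 genes between the siRNAs ran from -1.29 for LOX to -0.70 for CYP26A1. None passed, with limma adjusted p from 0.383 to 0.688.

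The promoters of the 3 genes just described are shown because these genes moved together between arrays. They are 300-base windows around the annotated start from RefSeq (GRCh38.p14), written 5′ to 3′ along the gene, with capitals marking ACGTG, the core of the sequence that hypoxia-inducible factors bind, or its reverse complement CACGT; the overlapping matches of CACGTG count as 2.
ENO2 promoter, chr12:6914330-6914629, plus strand: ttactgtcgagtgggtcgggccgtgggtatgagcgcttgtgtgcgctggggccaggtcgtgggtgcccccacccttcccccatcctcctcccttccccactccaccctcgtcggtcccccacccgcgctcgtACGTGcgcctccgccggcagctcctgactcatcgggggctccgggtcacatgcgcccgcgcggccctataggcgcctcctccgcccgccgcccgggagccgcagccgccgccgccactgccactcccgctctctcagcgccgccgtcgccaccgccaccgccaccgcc
ANKRD37 promoter, chr4:185396591-185396890, plus strand: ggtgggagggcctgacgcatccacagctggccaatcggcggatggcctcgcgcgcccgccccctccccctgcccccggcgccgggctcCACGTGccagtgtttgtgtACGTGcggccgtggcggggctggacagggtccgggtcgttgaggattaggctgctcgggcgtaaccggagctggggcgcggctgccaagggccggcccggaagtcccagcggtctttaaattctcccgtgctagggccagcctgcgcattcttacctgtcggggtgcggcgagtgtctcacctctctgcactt
LOX promoter, chr5:122078210-122078509, minus strand: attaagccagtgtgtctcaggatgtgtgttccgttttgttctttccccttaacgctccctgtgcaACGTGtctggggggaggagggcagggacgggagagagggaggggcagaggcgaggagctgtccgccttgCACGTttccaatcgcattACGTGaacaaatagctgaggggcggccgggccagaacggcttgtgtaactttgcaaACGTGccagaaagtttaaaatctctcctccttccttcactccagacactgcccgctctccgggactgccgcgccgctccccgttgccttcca
The windows of ENO2, ANKRD37 and LOX held 1, 3 and 4 matches, those of BIRC7 and CYP26A1 3 and 4. Of the genes more than 1 unit lower in KD1 replicate 1 than in KD1 replicate 2, 43 of the 118 with a window held a match (36.4%), and of those this far lower in KD2 replicate 2 than in KD2 replicate 3, 34 of 97 (35.1%). The share was 52.2% in the hypoxia list (12 of 23), 27.1% over all genes tested with a window (2498 of 9210) and 21.6% over all promoters in the table. It was 15.2% among the called genes higher in KD1 cells (7 of 46) and 27.8% among those lower (5 of 18). A match is a description of the letters and not a bound site.

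Within KD2, CXCR4, a chemokine receptor, had the widest range, with levels of 4.79 and 6.36 in KD1 cells and 5.42 and 7.29 in KD2 cells, against 6.92 and 6.55 in the control. ZG16, a secretory granule lectin of the gut, had 6.44 and 6.99 in KD1 cells and 5.82 and 7.63 in KD2 cells. The peptide hormone gene GNRH2 had 5.16 and 5.98 in KD1 cells and 4.86 and 6.69 in KD2 cells. In these 3 genes KD2 replicate 2 was the lower KD2 array. HDAC9, a histone deacetylase, was arranged the other way, with 5.13 and 4.80 in KD1 cells, 6.58 in KD2 replicate 2 and 4.80 in KD2 replicate 3. SPDEF, a transcription factor of goblet cells, had 5.41 and 4.98 in KD1 cells and 4.86 and 6.62 in KD2 cells. CXCR4, GNRH2, HDAC9 and SPDEF were each detected on only 1 KD2 array, so their lower KD2 levels lie in the background. HDAC9 and SPDEF were detected on no KD1 array, and CXCR4 and GNRH2 on 1.

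**Figure D5:**
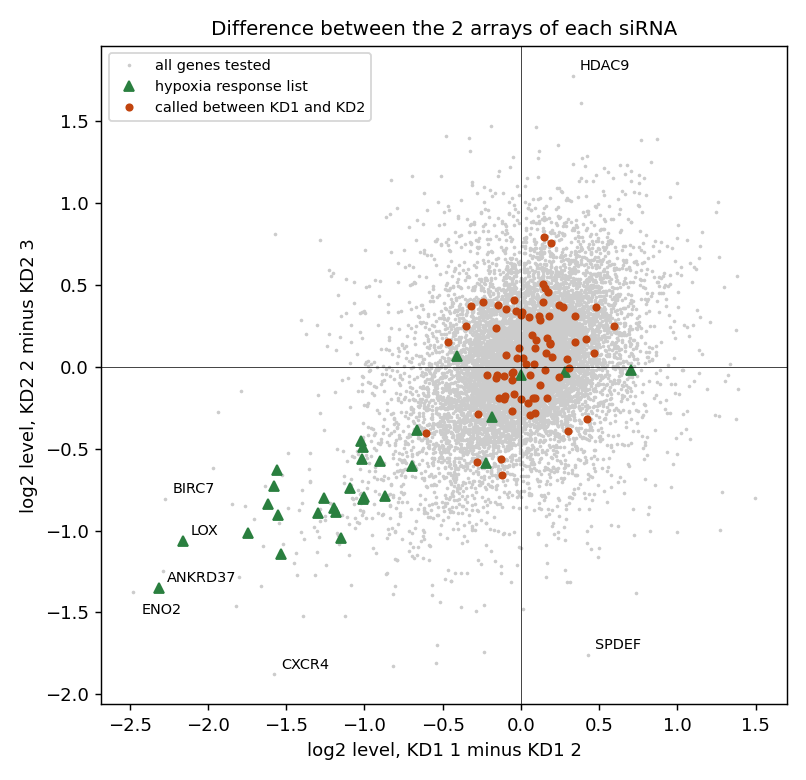
Difference in log2 level between the arrays of each siRNA, KD1 replicate 1 minus 2 on the horizontal and KD2 replicate 2 minus 3 on the vertical axis, 1 point per gene; triangles are the hypoxia response list and circles the 75 genes called between the siRNAs. Most triangles lie at the lower left, where KD1 replicate 1 and KD2 replicate 2 are both low, and the circles lie near the centre.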

How the data were processed

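RNA was measured with Illumina bead arrays in 12 samples of Caco-2 cells. The authors deposited raw probe intensity values with a detection p-value for each of 47323 probes, stored as 1 minus p, and normalised log2 values; the arrays were read with GenomeStudio 2010.1, per the submitters' processing notes, and how the authors normalised is not given in the sources used here. Deposited series values cover 47231 probes and equal the normalised table.

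The 12 arrays were background-corrected and quantile-normalised together with neqc (limma 3.58.1, R 4.3.3, offset 16). Kept were probes detected at p under 0.01 on 2 or more arrays (19263, of which 15104 have 1 gene symbol), and the probe with the highest mean stood for each of 11458 genes; 2946 genes had more than 1. All 30113 single symbols on the array came from the platform annotation, and 30074 matched RefSeq, with 0 changed. The 5 groups entered 1 limma fit with 7 residual degrees of freedom and a prior of 3.74, contrast KD1 minus KD2, two-sided, with Benjamini-Hochberg adjustment over all genes and a threshold of 0.05. The number of arrays limits precision, the median SE being 0.17. A gene undetected on all arrays of a group has a bound: on each such array the level used was that of the dimmest detected probe, or the gene's own where higher. The procedure was run on simulated arrays with independent noise and the same spread in every group. They held no shift shared by many genes and no wider spread within KD1 or KD2. The simulation therefore cannot show how the calls behave under such conditions. Named were SIRT1, up to 15 genes highest and 15 lowest among those past the threshold without overlap and with a regular symbol, list members past it or else the 3 with the smallest p, and the 5 widest ranges within each siRNA; other names were chosen after their values were seen, among them list members named as partners or pathway members. The siRNAs and the 48 lists were chosen with earlier results of these data known. The 17 alternatives covered normalization, offset, filter, arrays fitted, variance model, weights, replicate block, a hypoxia covariate, probe choice and leaving out each array.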

Additional observations from a re-analysis of the deposited data

How the results depend on the processing

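The number of genes that differed between KD1 and KD2 was 75 (54 higher, 21 lower) and moved with the processing, while every one of these genes that was tested kept its sign under all 17 alternatives. It was 162 (105 higher, 57 lower) with the authors' normalised values, 134 (85 and 49) with quantiles without background correction, and 163 (112 and 51) with a trended, robust variance model. It was 1 (1 and 0) with median scaling, which put the median of all genes at 0.10, and 2 (ITGA2 and TMED10; 2 and 0) with array weights. Limma called 0 genes (0 and 0) on the 6 siRNA arrays, with 1035 at an unadjusted p under 0.05, and 0 on the 4 KD arrays, with 747. Leaving out 1 KD array at a time gave 0 to 68 genes, 0 to 52 higher and 0 to 16 lower. Without a detection filter, 51 genes were called, 13 of them lower, and 18497 of 20046 genes had an interval within 2-fold, more than 10288 because more genes were tested; under the other alternatives this count was 8822 to 11402. The cause of the other shifts was not tested.

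The SIRT1 difference of -0.18 passed under no alternative; it ran from -0.53 to 0.16 with 1 KD array left out, the 0.16 being without KD2 replicate 2. The siRNAs share only replicate number 2, whose arrays deviated in opposite directions (r = -0.363 across genes). With 2 arrays per siRNA this value is the correlation of the ranges within the siRNAs with its sign turned. It rests on 1 shared number, so it cannot tell whether equal numbers mark paired cultures. With the replicate number as a block, limma called 0 genes (1007 at an unadjusted p under 0.05, smallest adjusted p 0.083) and SIRT1 stood at -0.12. With 2 arrays per siRNA, the median SE of a difference was 0.17, and probes near background give bounds at most.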
